A study of Homo sapiens with 6 samples.

Results

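RBFOX2-INSCRIBE was compared with the buffer-only control in long-read data from HEK293T, a line derived from human embryonic kidney that the labels also write as HEK293XT. All rows of the 2 RBFOX2-INSCRIBE and the 2 buffer-only libraries were taken, 586276 of the 839700 pairs of isoform and edited position that the 6 libraries of the series list. The RBFOX2-INSCRIBE libraries listed 211369 and 216646 pairs and the buffer-only libraries listed 79880 and 78381. In RBFOX2-INSCRIBE, fixed cells received a rabbit antibody against RBFOX2 and then Apo1-Nb, a purified fusion of the rat deaminase APOBEC1 with a nanobody against rabbit IgG. Buffer-only cells receive neither in the study's other experiments, and the long-read methods do not describe that control separately. The antibody and the enzyme thus changed together between these groups, so editing directed by the antibody and editing by enzyme that was not directed cannot be told apart in this comparison. No genetic change is named for either group. The RNA was sequenced as full-length molecules on 1 SMRT Cell per library. The study describes depletion of ribosomal RNA with its short-read library preparation, and its long-read methods do not name this step. The values are the edited fraction of the reads of an isoform at each position. The reads behind a fraction are not given, so the depth per site is unknown. The study's methods place INSCRIBE replicates on separate slides of the same cell line, so p-values measure the spread between slides, which may be technical.

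RBFOX2 is an RNA-binding protein that recognises UGCAUG and regulates alternative splicing, and it also binds 3′ UTRs. APOBEC1 deaminates cytosine to uracil and is known to prefer a C that follows an A or a U. In INSCRIBE a deaminase brought to an RNA-binding protein leaves C-to-U changes on nearby RNA, so the position of the changes reports where the protein was.

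The 6 sites below are UGCAUG occurrences whose surroundings gained the most edited Cs over the buffer-only control, 1 per gene, and they are shown because they let a reader see the RNA around the motif. They were picked by this gain, so their values are a description. Each line gives 30 bases of the spliced transcript from 5′ to 3′ with the motif in capitals, and all 6 lie in 3′ UTRs.
TSC22D2: ucuagcaugaucUGCAUGaccuauaaucuu
RAB10: cuugcgucucccUGCAUGcugcuuuauuug
UCHL5: accugcaucaugUGCAUGuagugcauauua
ANXA7: agagcaaugaccUGCAUGcagcaauaucaa
PPM1B: uuacaaauuuuaUGCAUGuaucuacugcau
CARNMT1: aacagaaaggaaUGCAUGcuguuuuucaau
On hg38 these windows are chr3:150459663-150459692 on the plus strand for TSC22D2, chr2:26135779-26135808 on the plus strand for RAB10 and chr1:193016159-193016188 on the minus strand for UCHL5. Those of the others are chr10:73376011-73376040 on the minus strand for ANXA7, chr2:44232976-44233005 on the plus strand for PPM1B and chr9:74981817-74981846 on the minus strand for CARNMT1.

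TSC22D2, of a family of leucine zipper proteins, had 17 and 16 distinct edited Cs within 50 nt of its site with the antibody and none in the controls (0 and 0). RAB10, a small GTPase of vesicle traffic, had 18 and 19 against 0 and 4. UCHL5, a deubiquitinase that works at the proteasome, had 13 and 15 against 1 and 1. In all 3 genes both antibody libraries stood well above both controls. ANXA7, a calcium-dependent membrane-binding annexin, had 15 and 14 against 2 and 1. PPM1B, a protein phosphatase, had 14 and 12 against 0 and 0, and its most edited C there reached 6.53% and 6.30% of reads. CARNMT1, a methyltransferase, had 14 and 14 against 0 and 2, and all 14 Cs edited in either antibody library were edited in both, of 17 Cs in the window. The groups did not overlap at any of the 6 sites. Over the 4963 UGCAUG occurrences with an edited C within 50 nt in any of the 6 libraries, 1791 (36.1%) had a higher number in each antibody library than in each control, and 46 a lower one.

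Distinct edited Cs on the strand of their isoform numbered 200783 and 205959 in RBFOX2-INSCRIBE and 72841 and 71531 in buffer-only. The means were 203371 ± 3660 and 72186 ± 926 (SD, n = 2), a ratio of 2.82 and a difference far larger than the spread between replicates (exact permutation of the library labels on both tails, p = 0.33, which is the lowest value that groups of 2 can reach). Both groups covered similar sets of transcripts, with 8086 and 7869 isoforms against 7554 and 7468, and 6611 and 6462 genes against 6321 and 6242. Edits on the opposite strand, which read as G-to-A along the isoform, were nearly equal, at 6812 and 6642 against 6328 and 6193 distinct sites. Per opposite-strand site the antibody libraries held 29.5 and 31.0 edited Cs and the controls 11.5 and 11.6. Of the markers used to check the cell line, the neurofilament genes NEFL and INA had 50 to 78 edited Cs in RBFOX2-INSCRIBE and 10 to 20 in buffer-only. NEFM, of the same family, had 24 and 21 against 16 and 14, and VIM had 1 to 6 in the 4 libraries. The 8 markers of liver, blood, fibroblasts and endothelium were at 0 in all 4 libraries. Only edited isoforms are listed, so a 0 does not show that a gene was not expressed. In all, 86 measures were compared between the groups at the level of libraries, of which 84 had p = 0.33 in this exact test, and the smallest adjusted p (Benjamini-Hochberg) was 0.34. No measure at this level could therefore pass a threshold, and the values stand beside their spread.

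The edit fraction of the listed positions rose much less than their number. Positions with no listed edit do not enter it, so it does not measure the rise in edits per read. Summed over an isoform, as given below, the fractions had medians of 0.324 and 0.325 against 0.0943 and 0.0961. Over single listed positions the median fraction stood at 0.641% and 0.633% of reads with the antibody against 0.521% and 0.518% in the controls. A fraction of at least 0.02 was reached by 19.0% and 18.5% of pairs against 17.5% and 17.7%. The difference between groups was larger than between replicates for both measures. It lay at Cs after A and after U, where the medians were 0.735% and 0.725% against 0.513% and 0.498% for A, and 0.633% and 0.610% against 0.483% and 0.490% for U. After G the order was turned, with 0.515% and 0.510% in RBFOX2-INSCRIBE and 0.535% and 0.546% in buffer-only. Within 50 nt of UGCAUG the median was 0.915% and 0.917% in RBFOX2-INSCRIBE against 0.546% and 0.552%. Farther away it was 0.629% and 0.621% against 0.521% and 0.518%. A set of 1047 pairs of isoform and position was listed in all 4 libraries, with median fractions of 0.115% and 0.108% against 0.0792% and 0.0793%. Of these pairs, 238 followed an A, and 106 of them had a higher fraction in both antibody libraries than in both controls and 23 a lower one. Of the 394 that followed a G, 56 were higher and 98 lower. The set holds sites that every library could detect, so it leans towards deeply read isoforms.

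Most of the gain fell on Cs after A or U, the context that APOBEC1 is known to prefer. Densities were counted over the 7120873 exonic Cs of the 9269 isoforms listed in any of the 4 libraries, each position once. After A, 50.3 and 52.7 of every 1000 Cs were edited in RBFOX2-INSCRIBE and 8.62 and 8.72 in buffer-only, a ratio of 5.94. After U, the densities were 36.5 and 37.9 against 9.14 and 8.97. These contexts stood apart by many times the difference between replicates. After G, the densities were 19.8 and 19.4 against 15.3 and 14.9, a ratio of 1.30. After C, they were 9.58 and 9.30 against 7.96 and 7.71, a ratio of 1.21. Buffer-only sites favoured G, which preceded 36.8% and 36.5% of them against 17.3% and 16.5% in RBFOX2-INSCRIBE. The following base moved the density as well. A C between A and U had the highest density of all triplets in RBFOX2-INSCRIBE, 69.3 and 72.6 per 1000 against 8.79 and 9.11 in buffer-only. A C between A and C had 26.2 and 27.2 against 6.98 and 7.03.

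The 3′ UTR gained more than the coding sequence, and the 5′ UTR gained least. In 3′ UTRs of protein-coding isoforms, 37.1 and 38.7 of 1000 Cs were edited in RBFOX2-INSCRIBE against 9.91 and 9.65 in buffer-only, a ratio of 3.88. In coding sequence the densities were 23.9 and 23.8 against 11.8 and 11.7, a ratio of 2.03. In 5′ UTRs they were 12.7 and 12.2 against 8.80 and 8.74, a ratio of 1.42. Buffer-only density was thus highest in coding sequence, whereas RBFOX2-INSCRIBE density was highest in 3′ UTRs. Exons of noncoding isoforms had 10.8 and 11.9 against 4.26 and 4.38. The 3′ UTR held 59.3% and 60.3% of edited Cs with the antibody and 43.7% and 43.3% without. Coding sequence held 34.9% and 33.9% against 47.6% and 47.8%, and 45.0% of all exonic Cs counted lay in 3′ UTRs. Context and region were then taken jointly. For Cs after A the ratio was 8.26 in 3′ UTRs, 3.91 in coding sequence and 3.11 in 5′ UTRs. For Cs after C it was 1.29, 1.15 and 1.10 in the same order.

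**Figure D1:**
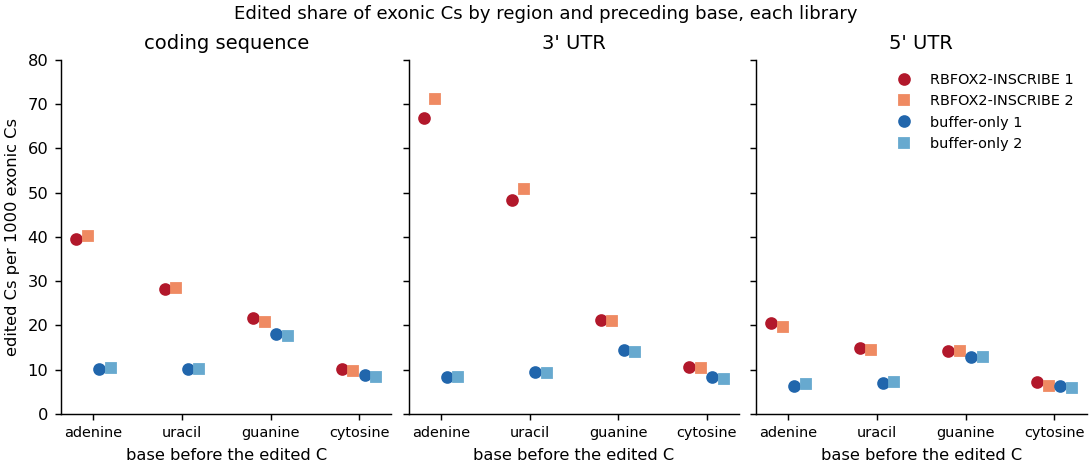
Edited Cs per 1000 exonic Cs (vertical axis) by the base before the edited C (horizontal axis) in coding sequence, 3′ UTR and 5′ UTR, with 1 point per library. The antibody libraries stand far above the controls after adenine in the 3′ UTR, at 66.9 and 71.1 against 8.36 and 8.35, and near them after cytosine in every region.

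Around UGCAUG the density rose towards the motif in RBFOX2-INSCRIBE and was higher on its 3′ side. At 1 to 20 nt 3′ of it, 61.8 and 64.6 of 1000 Cs were edited in RBFOX2-INSCRIBE and 9.91 and 9.49 in buffer-only, a ratio of 6.51. At the same distance 5′ of it, the densities were 51.8 and 53.6 against 9.93 and 9.60, a ratio of 5.40. Beyond 500 nt or in transcripts with no motif they were 26.2 and 26.8 against 10.2 and 10.1, a ratio of 2.61. The buffer-only density did not follow the motif, staying between 8.63 and 11.1 in all bins out to 200 nt. The C of the motif itself, 8771 positions, was an exception, with 23.4 and 23.0 against 15.8 and 16.1, a ratio of 1.45. That C follows a G. Within 50 nt of the motif lay 4.66% and 4.70% of edited Cs in RBFOX2-INSCRIBE, 1.77 and 1.79 times the share of all exonic Cs there. In buffer-only 2.64% and 2.52% lay there, 1.00 and 0.96 times that share. With an edit fraction of at least 0.02 the multiples were 2.51 and 2.66 against 1.02 and 1.00. The density near the motif was higher in each preceding context taken over all regions. After A, 94.2 and 97.9 of 1000 Cs were edited near the motif in RBFOX2-INSCRIBE against 49.1 and 51.5 farther away. After U, the values were 72.5 and 76.8 against 35.5 and 36.8, and after G they were 25.4 and 25.7 against 19.6 and 19.2. In 3′ UTRs the density near the motif was 65.0 and 69.5 in RBFOX2-INSCRIBE, 6.59 times that of buffer-only. In coding sequence it was 34.6 and 32.8 against 11.6 and 10.3. The 5′ UTR did not share this, with a share of edited Cs near the motif 0.84 and 0.98 times that of all Cs in RBFOX2-INSCRIBE, on 41 and 46 edited Cs near it.

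**Figure D2:**
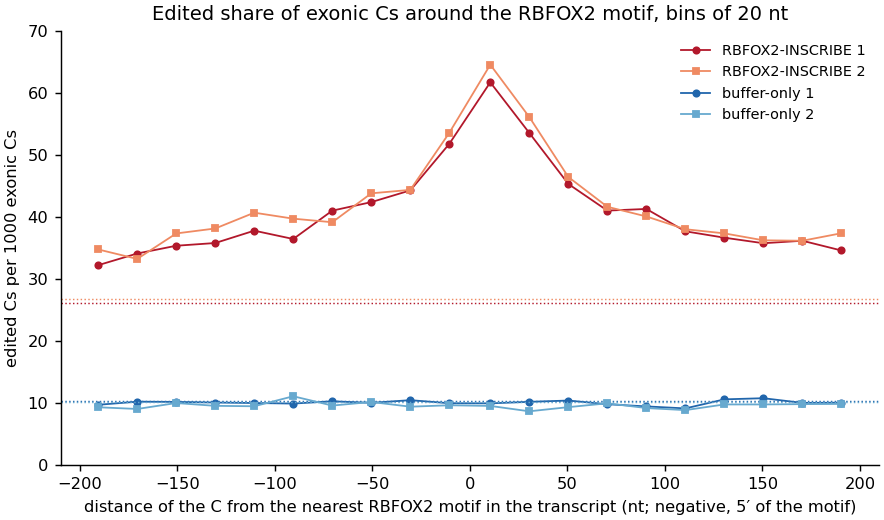
Edited Cs per 1000 exonic Cs (vertical axis) in bins of 20 nt by distance from the nearest UGCAUG in the spliced transcript (horizontal axis, negative values 5′ of it), 1 line per library. The dotted lines mark Cs beyond 500 nt or without a motif. Both RBFOX2-INSCRIBE lines peak in the first bin on the 3′ side at 61.8 and 64.6, and both buffer-only lines stay near 10.

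Whether the groups differed gene by gene was tested with limma on log2 of the distinct edited Cs of a gene plus 0.5, for the 4805 genes that averaged 5 or more over the 4 libraries, out of 7343 with an edited C. More edited Cs were found in RBFOX2-INSCRIBE for 3069 genes at an adjusted p (Benjamini-Hochberg) under 0.05, which is 63.9% of those tested, and fewer for 4 genes (0.0832%). The median log2 difference was 1.54, and 95.0% of differences were above 0. Counts of both RBFOX2-INSCRIBE libraries exceeded both buffer-only counts in 3873 genes (80.6%). Most genes thus moved together. Both antibody libraries were needed for these calls: without RBFOX2-INSCRIBE replicate 1 or without replicate 2, limma called 0 genes, with 1757 and 1727 at an unadjusted p under 0.05 and median log2 differences of 1.56 and 1.53. A gene with few buffer-only Cs can pass the minimum only by being high in RBFOX2-INSCRIBE, so its gain is large by selection. Genes with a buffer-only mean of at least 10 pass by that mean alone, and of these 2098 genes 1611 (76.8%) were called higher, with a median log2 difference of 1.38.

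Genes did not all gain alike. Once each library was scaled to the same total, the median log2 difference fell to 0.10, and limma called 403 genes higher (8.39%) and 289 lower (6.01%). These calls are relative to the common rise. Of the 289, 185 had an unscaled difference above 0 and 104 below 0, and before scaling 93 were called higher and 4 lower. The genes above the common rise had a median of 77.0 edited Cs in RBFOX2-INSCRIBE and 10.5 in buffer-only, and 83.6% of them held a UGCAUG in an exon. Of these 403, 220 had a buffer-only mean of at least 10. The others did not pass the minimum by that mean alone, so these medians rest in part on selection. The genes below the common rise had medians of 35.5 and 30.0, and 48.8% held a UGCAUG. Of the 4113 genes called neither, 62.7% held one. Cs after an A made up a median of 26.2% of the exonic Cs of the genes above and 19.5% of those of the genes below. The 3′ UTRs held a median of 58.1% and 27.8% of their exonic Cs. In the genes called neither these medians were 23.4% after an A and 43.3% in 3′ UTRs. Composition was related to the gain over the 2098 genes with a buffer-only mean of at least 10. Ordered by the share of their exonic Cs that follow A or U and cut into 4 classes of like size, the lowest class of 525 genes had a median log2 difference of 0.61, the next 1.25, the next 1.65 and the highest class 1.86. Spearman's rank correlation across these genes was 0.61 for that share, 0.31 for the share of Cs in 3′ UTRs and 0.24 for the number of UGCAUG. These are across genes, which are not independent replicates, and the 3 features are related to each other. Within the lowest class, genes with at least 1 UGCAUG had a median of 0.74 and those with none 0.51. Within the highest class these were 1.89 and 1.81.

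**Figure D3:**
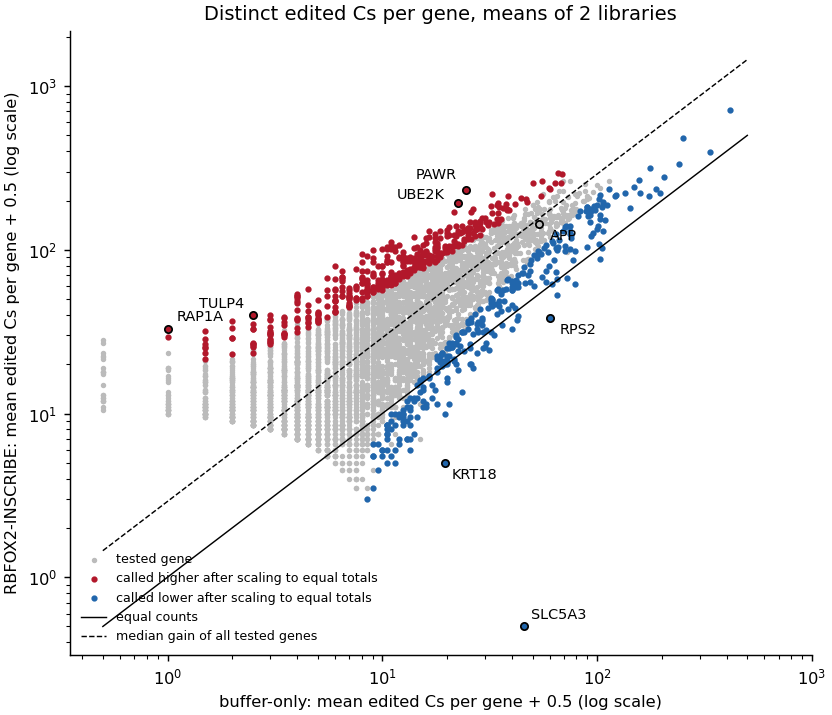
Mean distinct edited Cs per gene plus 0.5 in RBFOX2-INSCRIBE (vertical, log axis) against buffer-only (horizontal, log axis), 1 point per tested gene, with the lines of equal counts and of the median gain. Red and blue points were called higher (403) and lower (289) after scaling to the same total, and most blue points still lie above the line of equal counts.

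Genes with the highest gain were taken within classes of buffer-only counts, so that like was compared with like. Only called genes with both RBFOX2-INSCRIBE libraries above both buffer-only libraries were eligible, so the groups are apart by this rule. With 2 to under 5 buffer-only Cs on average, the class median was 1.90 over 1044 genes, and TULP4, ITGA2 and TMEFF1 led. TULP4, a protein of the tubby-like family, had 27 and 52 edited Cs against 0 and 4. ITGA2, an integrin subunit that binds collagen, had 35 and 40 against 0 and 5. TMEFF1, a transmembrane protein with EGF-like and follistatin-like parts, had 28 and 37 against 4 and 0. A buffer-only library was at 0 in each of the 3, and the log2 differences of 4.45 to 4.66 lean on the pseudocount.

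With 5 to under 10, the class median was 1.33 over 1445 genes. SEC24A, a cargo-binding subunit of the COPII coat, had 76 and 111 edited Cs against 12 and 3, a log2 difference of 3.80 (SE 0.47, limma adjusted p = 1.68e-06). UBE2D1, a ubiquitin-conjugating enzyme, had 77 and 57 against 7 and 3. IPMK, a kinase of inositol phosphates, had 96 and 62 against 6 and 5 although none of its listed exons held UGCAUG. Of the 187 edited Cs listed for SEC24A over both antibody libraries, 97.9% lay in the 3′ UTR and 88.8% followed A or U.

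With 10 to under 20, the class median was 1.44 over 1173 genes. ZNF770, a C2H2 zinc finger protein, had 90 and 133 against 14 and 7. PPM1A, a protein phosphatase, had 104 and 102 against 12 and 8, a log2 difference of 3.33 (SE 0.30, limma adjusted p = 1.57e-09). RRM2B, a subunit of ribonucleotide reductase that p53 induces, had 107 and 106 against 12 and 9 (limma adjusted p = 9.82e-10). All 3 exceeded the class median by 1.86 to 1.96 on the log2 scale, and the libraries within each group were close for PPM1A and RRM2B.

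With 20 or more, the class median was 1.31 over 925 genes. PAWR on chromosome 12 (hg38, 79584879 to 79690964), a pro-apoptotic regulator, led with 213 and 248 edited Cs against 20 and 28, a log2 difference of 3.25 (SE 0.20, limma adjusted p = 9.57e-12). Its exons held 5 UGCAUG, 98.3% of its edited Cs in RBFOX2-INSCRIBE lay in the 3′ UTR, and 122 positions were edited in both antibody libraries. UBE2K, a ubiquitin-conjugating enzyme, had 186 and 200 against 23 and 21. NHLRC2, a protein with NHL repeats, had 139 and 200 against 26 and 16. After scaling to the same total, SEC24A, UBE2D1, IPMK, ZNF770, PPM1A, RRM2B, PAWR, UBE2K and NHLRC2 were still called higher, at limma adjusted p from 1.35e-06 to 0.00419. For TULP4, ITGA2 and TMEFF1, which passed the minimum only through RBFOX2-INSCRIBE, the size of the gain is a description. SEC24A, UBE2D1 and IPMK, with buffer-only means of 5.0 to 7.5, did not pass by those means alone either. The size of their gain may thus be large in part by selection.

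The lowest differences often came from a library with no listed edit. MAP2K4, a kinase upstream of JNK, had 0 and 16 edited Cs against 3 and 6. FGFBP3, which binds fibroblast growth factors, had 0 and 14 against 3 and 5, and CEP85L, a centrosomal protein, had 13 and 0 against 3 and 4. In each the RBFOX2-INSCRIBE replicates lay on both sides of the controls. HS6ST1, a sulfotransferase of heparan sulfate, had 0 and 6 against 5 and 11. SOWAHC, an ankyrin repeat protein, had 0 and 7 against 6 and 8, and SLC7A5, a transporter of large neutral amino acids, had 0 and 10 against 5 and 10. None of these 6 genes was called, with limma adjusted p from 0.174 to 0.754. ZBED4, a zinc finger protein, had 51 and 0 against 20 and 17, and ZNF703, a zinc finger repressor, had 0 and 64 against 32 and 15. NBPF20, of a family of near-identical copies on chromosome 1 whose reads can be split between genes, had 8 and 14 against 19 and 21 (limma adjusted p = 0.0976). A count of 0 means that no edited position was listed. Of the 4805 tested genes, 47 had an RBFOX2-INSCRIBE library at 0 and 206 had a buffer-only library at 0.

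Of the 4 genes called lower, SLC5A3 stood apart. SLC5A3, a sodium-coupled transporter of myo-inositol on chromosome 21 (hg38, 34073578 to 34106260), had 44 and 46 edited Cs in buffer-only and was listed at 0 in both RBFOX2-INSCRIBE libraries (limma adjusted p = 2.92e-06). It was also at 0 in enzyme-only replicate 2 and had 135 in enzyme-only replicate 3, and MRPS6, whose locus it overlaps, had 0 and 0 against 2 and 0. RPS2, a protein of the small ribosomal subunit, had 45 and 31 against 48 and 72, a log2 difference of -0.65 (SE 0.26, limma adjusted p = 0.0347). Its edits per read were nearly equal, at 0.0484 and 0.0363 against 0.0424 and 0.0424. RRP7A, which takes part in processing of ribosomal RNA, had 10 and 1 against 13 and 13 (limma adjusted p = 0.0406). KRT18, an intermediate filament protein of epithelia, had 5 and 4 against 32 and 6, so that buffer-only replicate 1 set its difference (limma adjusted p = 0.0466). In bulk RNA, fewer edited cells and less RNA of a gene per cell cannot be told apart. RPS2 has near-identical copies elsewhere in the genome, so reads could be split between them.

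**Figure D4:**
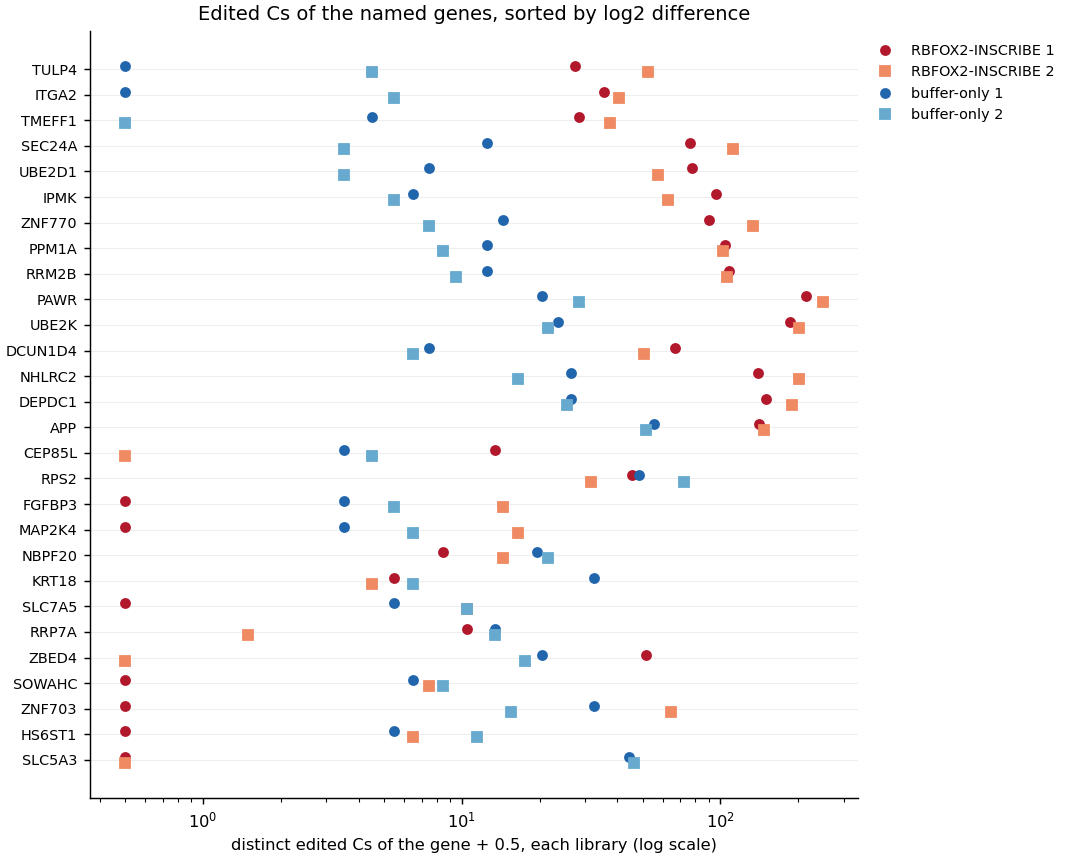
Distinct edited Cs plus 0.5 (log axis) of 28 named genes in each of the 4 libraries, from the largest log2 difference at the top to the smallest at the bottom. Down to APP the antibody libraries lie to the right of both controls, below it the groups overlap or are reversed, and SLC5A3 is at 0 in both antibody libraries.

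Of the genes that the study singles out, APP, DEPDC1 and DCUN1D4 were named and were called higher. APP, the amyloid precursor protein, had 141 and 147 edited Cs against 55 and 51, a log2 difference of 1.43 (SE 0.17, limma adjusted p = 8.51e-08). Its gain was close to the median of all genes, and after scaling it was not called (limma adjusted p = 0.864). The study reports clustered edits in its 3′ UTR in short reads, which a count over the gene does not measure. Here the 3′ UTR of APP held 49.3% of the 288 edited Cs listed over both antibody libraries. In the controls it held 20.8% of 106. Of the exonic Cs of APP, 10.1% lay within 50 nt of a UGCAUG. DEPDC1, a DEP domain protein of dividing cells, had 150 and 188 against 26 and 25, a log2 difference of 2.70 (SE 0.20, limma adjusted p = 9.54e-11). All 3 of its isoforms gained. Isoform ENST00000370966 had 90 and 82 against 11 and 5. The longer ENST00000456315 went from 13 and 16 in buffer-only to 59 and 123, and the retained intron isoform ENST00000488146 had 33 and 36 against 2 and 4. ENST00000370966 and ENST00000488146 did not pass the minimum by their buffer-only counts alone. The size of their gains may thus be large in part by selection. DCUN1D4, a co-factor of cullin neddylation, had 66 and 50 against 7 and 6, a log2 difference of 3.05 (SE 0.39, limma adjusted p = 2.78e-07). Its buffer-only mean of 6.5 did not pass the minimum alone, so the size of this gain may be large in part by selection. Its isoforms ENST00000334635, with 44 and 36 against 5 and 4, and ENST00000381441, with 30 and 17 against 2 and 2, both gained. The second has no UGCAUG in its exons. Neither isoform passed the minimum by its buffer-only counts alone. RBFOX2 itself had 0 and 1 against 0 and 3 edited Cs and was too low to test.

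Isoforms repeated the pattern of genes. Of 5365 isoforms that averaged 5 or more edited Cs, 3345 (62.3%) were called higher and 5 (0.0932%) lower, with a median log2 difference of 1.57 (limma). As for genes, 0 isoforms were called without either RBFOX2-INSCRIBE replicate. The isoforms called lower were those of SLC5A3, RPS2, RRP7A and KRT18 and the short HMGB1 isoform ENST00000339872, which carried 13 and 16 in the controls and was listed at 0 with the antibody. HMGB1, a chromatin protein, gained in its longer isoform ENST00000341423, with 122 and 137 against 68 and 54. Of 531 genes with at least 2 tested isoforms, all isoforms were called higher in 230, some in 220 and none in 81. The difference between isoforms of a gene was not tested.

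The sum of the edit fractions over an isoform, which is its mean number of edits per read and does not grow with the number of reads as a count of positions does, also rose. Over the 5365 isoforms its median came to 0.324 and 0.325 with the antibody against 0.0943 and 0.0961 in buffer-only. More than 1 edit per read was found for 484 and 453 isoforms against 24 and 35. The median log2 difference was 1.64, and 2175 isoforms (40.5%) were called higher and 3 (0.0559%) lower. The 4 libraries were all needed for these calls, as limma called 0 isoforms without any 1 of them, with 1856 and 1875 at an unadjusted p under 0.05 without RBFOX2-INSCRIBE replicate 1 and 2, and 2602 and 2627 without buffer-only replicate 1 and 2. Of the 3345 isoforms with more edited Cs, 1983 were also called by edits per read. PAWR had 2.45 and 2.44 edits per read against 0.111 and 0.246. UBE2K had 1.37 and 1.18 against 0.132 and 0.0900. The groups were far apart in both genes by this readout too. The most edited isoform was the retained intron transcript ENST00000603233 of NFIA, a transcription factor, with 6.38 and 5.92 edits per read against 1.54 and 0.90 (limma adjusted p = 0.0394). The retained intron isoform ENST00000487466 of NKTR, a cyclophilin-like protein, had 1.83 and 1.83 and was listed at 0 in both buffer-only libraries. It passed the minimum only through RBFOX2-INSCRIBE, so its gain is large by selection and is a description. Called lower were SLC5A3, RPS19, a ribosomal protein, with 0.0401 and 0.179 against 1.27 and 1.36, and NUDC, a protein of nuclear movement, with 0.0473 and 0.0590 against 0.258 and 0.187. The RPS19 isoform was not called by edited Cs, with 10 and 6 against 8 and 14 (limma adjusted p = 0.520). Nor was that of NUDC, with 13 and 13 against 21 and 25 (limma adjusted p = 0.0922).

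Gene families differed in gain. Values are given for members with a buffer-only mean of at least 10, to be set beside the 76.8% called higher and the median log2 difference of 1.38 of all 2098 such genes. After scaling, 10.5% of these were called higher and 13.3% lower. The families are names from symbols, and the members tested are not a sample of replicates.

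Cytosolic ribosomal proteins had the lowest median by edited Cs. Of 72 with an edited C, 26 were tested and 19 had a buffer-only mean of at least 10, of which 3 were called higher and RPS2 lower, with a median of 0.14. After scaling 9 were called lower and 0 higher. RPL3 had 69 and 36 edited Cs against 62 and 67, and RPL4 had 93 and 55 against 48 and 67, so the groups overlapped in both. RPS23, the member with the largest gain in this set, had 23 and 33 against 13 and 9 (log2 difference 1.31). Over all 26, RPS16 had the largest value, 7 and 11 against 5 and 0 (limma adjusted p = 0.0997), and RPL9 the smallest, 8 and 1 against 8 and 4. RPS16 did not pass the minimum by its buffer-only counts alone, so its value may be large in part by selection. The median share of Cs after A or U in these 19 genes was 47.0%, and 18 of the 19 lay below the median gain of the genes in their own class of that share. By edits per read their 19 isoforms had a median log2 difference of 0.53, and 1 was called higher. Over all 2023 isoforms with a buffer-only mean of at least 10 the median was 1.49, and 911 were called higher. By that readout tubulins and cytoplasmic actins (0.32) and glycolysis (0.48) were lower still.

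Other abundant, housekeeping families were also low. Tubulins and cytoplasmic actins had a median of 0.30 over 5 genes, with 2 called higher and 4 lower after scaling. TUBB4B, a beta-tubulin, had 16 and 7 against 16 and 14. Glycolysis enzymes had a median of 0.48 over 7 genes, 4 of them called higher and 4 lower after scaling. GAPDH had 39 and 20 against 32 and 33 (limma adjusted p = 0.574), whereas LDHA, lactate dehydrogenase A, had 80 and 75 against 23 and 25 (log2 difference 1.67). Histones had a median of 0.59 over 7 genes. H2AX had 10 and 7 against 15 and 9, and H2AZ2 had 108 and 91 against 23 and 23, so members of this family ran from -0.45 to 2.08. Proteasome subunits had a median of 0.85 over 13 genes, with 8 called higher, and 0 higher and 4 lower after scaling.

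Small GTPases and genes named after them had the highest median by edited Cs. Of 71 with an edited C, 59 were tested and 48 (81.4%) were called higher, beside 63.9% of all tested genes. Of the 59, 41 had a buffer-only mean of at least 10. Among these 41 the median was 1.78, 37 were called higher, and after scaling 13 were higher and 4 lower. RAB21, of endosomes, had 122 and 127 edited Cs against 16 and 18 (log2 difference 2.84). RAP1A, a regulator of adhesion, had the largest value over all 59, with 29 and 36 against 1 and 0. It passed the minimum only through RBFOX2-INSCRIBE, so the size of its gain is large by selection and is a description. RAB1B stood at the other end of the 41, with 29 and 18 against 24 and 20 (log2 difference 0.06), and RAC3, a regulator of the actin cytoskeleton, was the lowest of the 59, with 5 and 3 against 7 and 6. By edits per read 26 of 42 GTPase isoforms were called higher, with a median of 1.80, to be set beside 911 of all 2023 isoforms. Coat and sorting proteins (1.81), solute carriers (1.81) and 14-3-3 proteins (1.80) had like medians. The median share of Cs after A or U in the 41 GTPase genes was 51.0%. Their median gain lay 0.20 above that of genes in the same class of this share.

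Splicing regulators, among which RBFOX2 acts, were called higher in all 15 entries tested, which include 2 gene identifiers named MATR3. Their median buffer-only count was 40.5. Of all tested genes 63.9% were called higher, and of those with a buffer-only mean of 20 or more 85.8%. Among the 13 with a buffer-only mean of at least 10 the median was 1.40, close to the 1.38 of all such genes. QKI, a regulator of splicing, had 182 and 180 edited Cs against 33 and 36 (log2 difference 2.38, SE 0.18), and KHSRP, a protein of RNA decay and splicing, had 69 and 56 against 55 and 30 (0.61, SE 0.26, limma adjusted p = 0.0462). After scaling, QKI, FUBP1 and 1 of the MATR3 entries were called higher and KHSRP, PTBP1 and ELAVL1 lower. SR and hnRNP proteins had a median of 1.26 over 28 genes, with 25 called higher. SRSF10, a splicing factor, had 262 and 246 against 57 and 42. HNRNPU, which binds nuclear RNA, had 310 and 360 against 250 and 232, a log2 difference of 0.47.

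**Figure D5:**
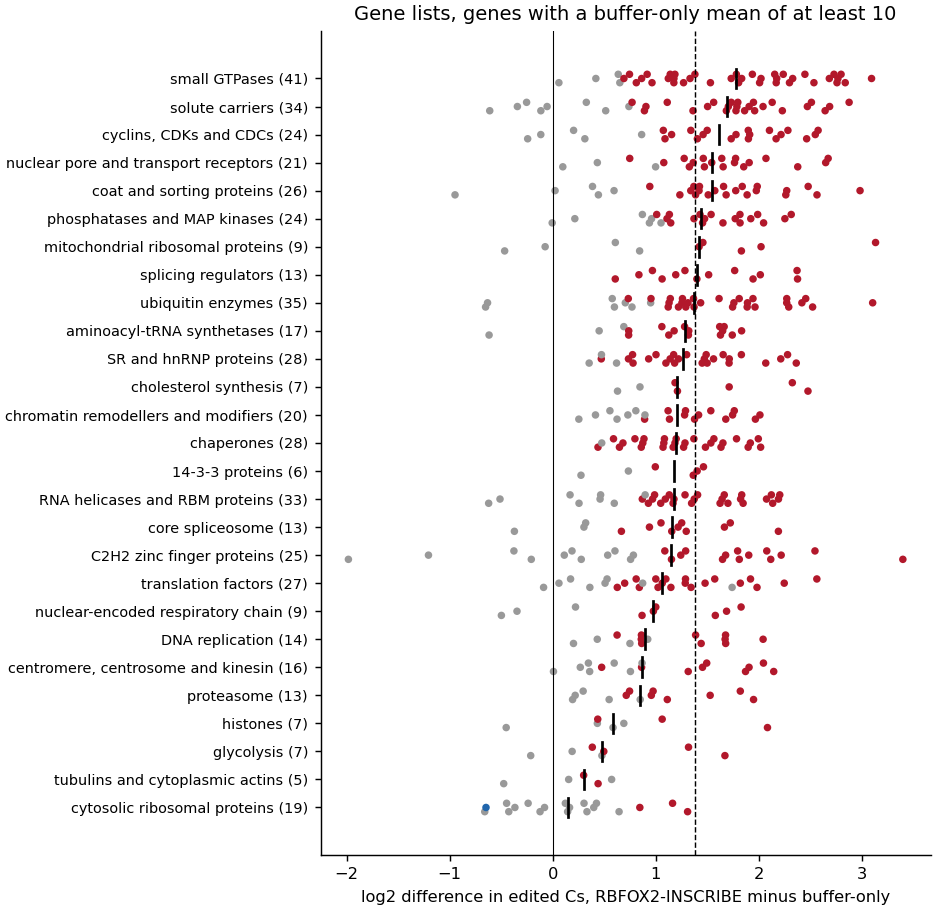
Log2 difference in distinct edited Cs, RBFOX2-INSCRIBE minus buffer-only with 0.5 added (horizontal axis), for genes of 27 families with a buffer-only mean of at least 10, 1 point per gene. Red was called higher, blue lower and grey neither, black ticks are family medians, the dashed line is the median of all 2098 genes (1.38), and SLC5A3 at -6.51 lies outside the axis. Cytosolic ribosomal proteins (median 0.14) are at the bottom and small GTPases (1.78) at the top.

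The other families lay between these. The median was 0.86 for centromere, centrosome and kinesin genes (9 of 16 called higher), 0.89 for DNA replication (10 of 14) and 0.98 for the respiratory chain (6 of 9). It was 1.06 for translation factors (19 of 27), among which EEF1G, an elongation factor subunit, had 82 and 40 against 63 and 59. It was 1.15 for C2H2 zinc finger proteins (14 of 25), 1.16 for the core spliceosome (10 of 13) and 1.18 for RNA helicases and RBM proteins (25 of 33). It was 1.18 for 14-3-3 proteins (4 of 6), 1.19 for chaperones (27 of 28), 1.21 for chromatin remodellers (13 of 20) and 1.28 for aminoacyl-tRNA synthetases (14 of 17). Cholesterol synthesis had a median of 1.21, with 5 of 7 called higher. HMGCS1, which makes the HMG-CoA of that pathway and averaged 5 in buffer-only, had 47 and 65 against 6 and 4. The buffer-only counts of HMGCS1 did not pass the minimum alone, so the size of its gain may be large in part by selection. DHCR7, the last reductase of the pathway, had 29 and 24 against 15 and 19. Ubiquitin enzymes had a median of 1.37 (28 of 35), mitochondrial ribosomal proteins 1.42 (5 of 9) and phosphatases and MAP kinases 1.44 (18 of 24). MRPL19, the highest mitochondrial ribosomal member, had 105 and 77 against 12 and 8, and the 9 members ran from -0.47 to 3.13. The median was 1.54 for coat and sorting proteins (21 of 26) and for nuclear pore and transport receptors (18 of 21), 1.62 for cyclins, CDKs and CDCs (19 of 24) and 1.69 for solute carriers (25 of 34).

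Whether the 3′ UTR of a gene gained more than its own coding sequence was tested in the 1815 genes that averaged 5 or more in each. The median log2 difference of the ratio was 0.85, in the direction of the 3′ UTR. No gene (0%) passed with limma at an adjusted p of 0.05, while 446 had an unadjusted p under 0.05. With a mean of at least 10 in each region, 111 of 870 genes (12.8%) passed, all towards the 3′ UTR. EEA1, a tether of early endosomes, had 100 and 86 edited Cs in its 3′ UTR in RBFOX2-INSCRIBE against 4 and 4 in buffer-only, whereas its coding sequence had 8 and 12 against 11 and 13. The log2 difference was 4.65 (SE 0.48, limma adjusted p = 0.132, and 0.0188 with the higher minimum). A 3′ UTR with few edited Cs in buffer-only, as in EEA1, ZNF503 and FHL1, passes the minimum only through RBFOX2-INSCRIBE, so these gains and the 111 calls rest in part on selection. ZNF503, a zinc finger repressor, had 28 and 18 against 2 and 2 in the 3′ UTR and 18 and 9 against 20 and 16 in the coding sequence. FHL1, a LIM domain protein, had 38 and 40 against 2 and 5, and 4 and 6 against 5 and 6. In these 3 genes the coding counts of the groups overlapped or lay close, while the 3′ UTR counts were far apart. Among genes of the opposite direction, SF3A3, a splicing factor, had 26 and 31 against 7 and 9 in the coding sequence and 6 and 8 against 7 and 7 in the 3′ UTR. WDR12, of ribosome assembly, had 11 and 7 against 2 and 3, and 15 and 12 against 14 and 14. VPS33A, of lysosomal fusion, had 29 and 21 against 2 and 3, and 4 and 12 against 5 and 6. None of these 3 was called (limma adjusted p = 0.139 for each).

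A test of edited Cs within 50 nt of UGCAUG against those farther away in the same gene had a median log2 difference of 0.57 towards the motif over 612 genes, and of 0.25 with a pseudocount of 1. Genes entered where they averaged 3 or more near the motif, which many can reach only through RBFOX2-INSCRIBE, so this gain is large in part by selection and is given as a description. No gene (0%) passed with limma, and 115 had an unadjusted p under 0.05. DSP, desmoplakin, had 8 and 12 edited Cs near the motif in RBFOX2-INSCRIBE against 0 and 0, and 41 and 40 against 25 and 21 farther away (limma adjusted p = 0.130). RABEP1, an effector of RAB5, had 11 and 12 against 0 and 0 near the motif and 72 and 97 against 42 and 34 farther away. DDX18, an RNA helicase, had 10 and 12 against 0 and 0, and 129 and 134 against 44 and 43. SKP1, a ubiquitin ligase subunit, had 12 and 11 against 0 and 0, and 52 and 34 against 12 and 17. A MATR3 entry had 12 and 18 against 0 and 0, and 57 and 85 against 21 and 12. All 5 genes had no edited C near the motif in either control.

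Sites were repeated between replicates more often with the antibody. Both RBFOX2-INSCRIBE libraries shared 50362 sites, 25.1% of the smaller library, and both buffer-only libraries shared 6617, or 9.25%. Found in both antibody libraries and neither control were 42058 sites, of which 54.8% followed an A, 74.4% lay in 3′ UTRs and 7.90% within 50 nt of UGCAUG. Found in both controls and neither antibody library were 2977, of which 10.7% followed an A, 51.1% followed a G and 39.1% lay in 3′ UTRs. The more numerous the sites of a library, the more overlap there can be, so the shares of the groups were not tested against each other. No site was listed in all 4 of the RBFOX2-INSCRIBE and enzyme-only libraries, which follows from the removal of shared edits by the authors and takes the most repeated sites out of these counts. A site in all 4 of these was thus removed whether or not buffer-only held it. Whether the removed sites were also taken out of buffer-only is not stated, and 1210 sites were listed in all 4 of the RBFOX2-INSCRIBE and buffer-only libraries. If they were not, sites taken out of the antibody libraries could remain among the 2977 of the controls.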

How the data were processed

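Long-read C-to-U edits of 4 libraries were analysed. The authors built consensus reads, aligned them to hg38 with pbmm2 and kept reads with a quality score of at least 20. They assigned these reads to isoforms with IsoQuant, called edits and removed dbSNP positions and edits found in all replicates and samples. The deposited values are the edited fraction of the reads per isoform and position; read counts were not used here, so depth is unknown and no interval was computed. The annotation used for the long reads is not given in the sources used here. Isoforms were matched to GENCODE release 44, which held 99.7% to 99.8% of the pairs of a library. Pairs on chromosome Y (34 to 110 per library) and on the opposite strand were left out of the counts of edited Cs, and the latter were counted separately.

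Distinct edited Cs were counted per gene (once over its isoforms) and isoform, and fractions of up to 0.8 were summed per isoform. Region and distance to UGCAUG were read along the spliced transcript; all exonic Cs of the listed isoforms served as background. limma (lmFit, eBayes with trend and robust settings) tested log2 values with a pseudocount of 0.5 (0.01 for summed fractions), with Benjamini-Hochberg adjustment over all features tested and a minimum mean of 5 edited Cs (3 in the motif test). A fold change on this scale understates that of low genes. Libraries were compared with two-sided exact permutation tests. The scripts were tested on simulated data.

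Named were the 3 highest called genes per class of buffer-only mean (2, 5, 10 and 20 edited Cs). They were taken where both RBFOX2-INSCRIBE libraries exceeded both buffer-only libraries. Also named were the 3 lowest genes per class, genes called lower and the leading genes of the region and motif tests. So were 4 genes of the study, the extreme members of described families, and 6 motif occurrences off chromosome 8 with the largest gain. Other family members, HMGB1, NFIA, NKTR, RPS19 and NUDC were chosen after their values were seen. The members and the 27 gene lists were chosen with earlier results of these data known. Alternatives covered the pseudocount, minimum counts and fractions, scaling, the 3-group fit, a block for the replicate number and the omission of single libraries. Python 3.11.15, numpy 2.4.6, pandas 2.3.3, scipy 1.17.1, matplotlib 3.10.9, R 4.3.3 and limma 3.58.1 were used.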

Additional observations from a re-analysis of the deposited data

Results flagged for a closer look

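The enzyme-only libraries, which received Apo1-Nb without the antibody, took no part in the comparison and held more distinct edited sites than either control, 86115 in replicate 2 and 153911 in replicate 3, against 72841 and 71531 in buffer-only. Both lay under the 200783 and 205959 of RBFOX2-INSCRIBE. The share of their edited Cs within 50 nt of UGCAUG was 1.01 and 1.06 times that of all exonic Cs. Whether they differ from RBFOX2-INSCRIBE was not tested.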

How the results depend on the processing

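The direction of each comparison over all features was kept under every alternative run, while the number of calls was not. The ratio of edited Cs between the groups was 3.02 with an edit fraction of at least 0.02, 2.62 per G-to-A site and 2.78 to 2.85 with single libraries left out. At fractions of at least 0.05 the ratio of the shares of pairs was 1.11. The ratio between the 3′ UTR shares was 1.46 at a fraction of at least 0.02. The ratio between the UGCAUG shares was 1.64 with a window of 100 nt and 2.57 at a fraction of at least 0.02. With a minimum mean of 20 edited Cs, limma called 1893 genes and 1853 isoforms. With a fraction of at least 0.02 it called 845 and 737, and after scaling to the same total 692 genes (403 higher, 289 lower) and 680 isoforms (399 higher, 281 lower). Leaving out single libraries gave 0 to 2846 genes and 0 to 3131 isoforms, with 0 for either RBFOX2-INSCRIBE library, and 0 calls for summed fractions throughout. Summed fractions scaled to the same total also gave 0 calls, with 966 at an unadjusted p under 0.05. The region test called 111 genes at a mean of 10 per region and 6 at a fraction of at least 0.02. The median of the UGCAUG test was 0.57, and 0.25 with a pseudocount of 1. APP reversed after scaling, to -0.051 on the log2 scale. Of the 28 named genes, 19 lost their call without RBFOX2-INSCRIBE replicate 1 and 19 without replicate 2.

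Same-numbered libraries did not deviate together (r = 0.02 over 4805 genes), so the numbers are not taken as pairs. With the replicate number as a block, limma called 3027 genes higher, 3014 of them also called without it, 13 genes in the UGCAUG test (12 towards the motif, 1 away) and 0 isoforms by summed fractions, with 2834 at an unadjusted p under 0.05. Without read depth, a position with no listed edit cannot be told from one with no reads.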
